A study of Mus musculus with 47 samples.

Results

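The 10 genes described here are *Hmox1*, *Nqo1*, *Gclc*, *Gclm*, *Txnrd1*, *Slc7a11*, *Srxn1*, *Gsr*, *Prdx1* and *Nfe2l2*, chosen by name as antioxidant genes of the NRF2 pathway from the 56748 genes of the count table, and all 10 were found and measured. RNA came from B78-D14, an amelanotic mouse melanoma line derived from B16 that lacks *Cdkn2a*, and from tumors it formed under the skin of immunocompetent C57/BL6 mice. The cultures were 4 of wild-type control cells and 4 of cells carrying a truncating change at m.11,944 of the mitochondrial complex I gene *Mt-Nd5* in about 60% of their mtDNA copies. The tumors were 4 grown from wild-type control cells, 7 from cells with the *Mt-Nd5* change at m.12,436 in 40% of copies and 7 from cells with it in 60%, and no culture or mouse received a treatment. The groups are written below as control and m.11,944 60% cells and as control, m.12,436 40% and m.12,436 60% tumors. The edited lines are populations made by a mitochondrial base editor after transfection, in which mutant and wild-type mtDNA coexist, and the percentage names the cells that were injected. The tumor samples are pieces that also hold host cells, and since cultures and tumors carry different changes, no single change can be followed from one to the other.

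NRF2, the product of *Nfe2l2*, is a transcription factor that is made continuously and destroyed just as fast, because KEAP1 binds it and presents it to a CUL3 ubiquitin ligase. Oxidants and electrophiles, including fumarate, modify cysteines of KEAP1, after which NRF2 accumulates, pairs with small MAF proteins and binds antioxidant response elements near its target genes. The targets import cystine, build glutathione, reduce thioredoxin and peroxiredoxin, supply NADPH and degrade heme. *Hmox1*, the inducible heme oxygenase, has regulators besides NRF2: BACH1 represses it until heme is abundant, and macrophages that take up red cells express it strongly.

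Levels are given as CPM, counts scaled to a common library size after normalizing the libraries with edgeR's TMM method, separately for cultures and tumors. The libraries held between 16475735 and 36173502 counts. All 8 cultures held at most 1 count of *Ptprc*, the pan-leukocyte gene, and the tumors between 1334 and 4410 counts, where all 15 macrophage markers were detected, against 8 of the 15 at 0 in every culture. *Tyr*, the pigment enzyme that defines melanocytes, was at 0 in all 8 cultures, while *Mitf*, the melanocyte transcription factor, lay between 7.57 and 22.6 CPM there. The remaining melanoma and neural crest markers (*Sox10*, *Pmel*, *Dct*, *Mlana*, *Tyrp1* and *Gpr143*) were each at most 0.436 CPM in the cultures. In bulk tumor RNA, fewer cells of a type and less RNA per cell cannot be told apart. *Prdx1* counts are uncertain, since 40.5% of the 100-base windows of its longest transcript matched another place in the genome with at most 2 mismatches, against 7.57% for *Gsr* and at most 1.53% for the other members.

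One tumor stood apart before any groups were compared. In m.12,436 40% tumor 2, 8 of the 10 members were higher than in each of the other 17 tumors, where 18.6% of the 16213 genes tested were highest in that tumor. *Slc7a11*, the cystine carrier of the xCT antiporter, reached 174 CPM there, and in the other 17 tumors it ran from 2.14 to 9.64 CPM with a median of 4.58. *Nqo1*, a quinone reductase, reached 149 CPM against 4.44 to 9.15 CPM elsewhere. These ratios to the median of the other tumors were 37.9 and 25.6, and neither gene came near this level in any other tumor.

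The remaining targets followed with smaller ratios. *Gclm* and *Gclc*, the modifier and catalytic subunits of the enzyme that begins glutathione synthesis, stood at 160 and 85.4 CPM, above highest values of 56.3 and 34.4 CPM in the other tumors. *Txnrd1*, cytosolic thioredoxin reductase, stood at 880 CPM, where the others reached 274 at most. *Srxn1*, which repairs overoxidized peroxiredoxins, was at 212 CPM, 1.83 times the highest of the others. *Gsr*, glutathione reductase, and *Prdx1*, a thiol peroxidase, were only slightly past the other tumors, at 164 CPM against 148 and at 305 CPM against 267.

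The exceptions were the regulator and the heme enzyme. *Nfe2l2* itself was at 175 CPM in tumor 2, eighth among the 18 and 1.05 times the median of the others. *Hmox1* was at 63.9 CPM, 0.64 times that median and 15th of 18. *Keap1*, which restrains NRF2, was at 83.5 CPM and the highest of the 18, just past 81.0 CPM. The members that were high in this tumor therefore included neither *Nfe2l2* nor *Hmox1*.

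**Figure D1:**
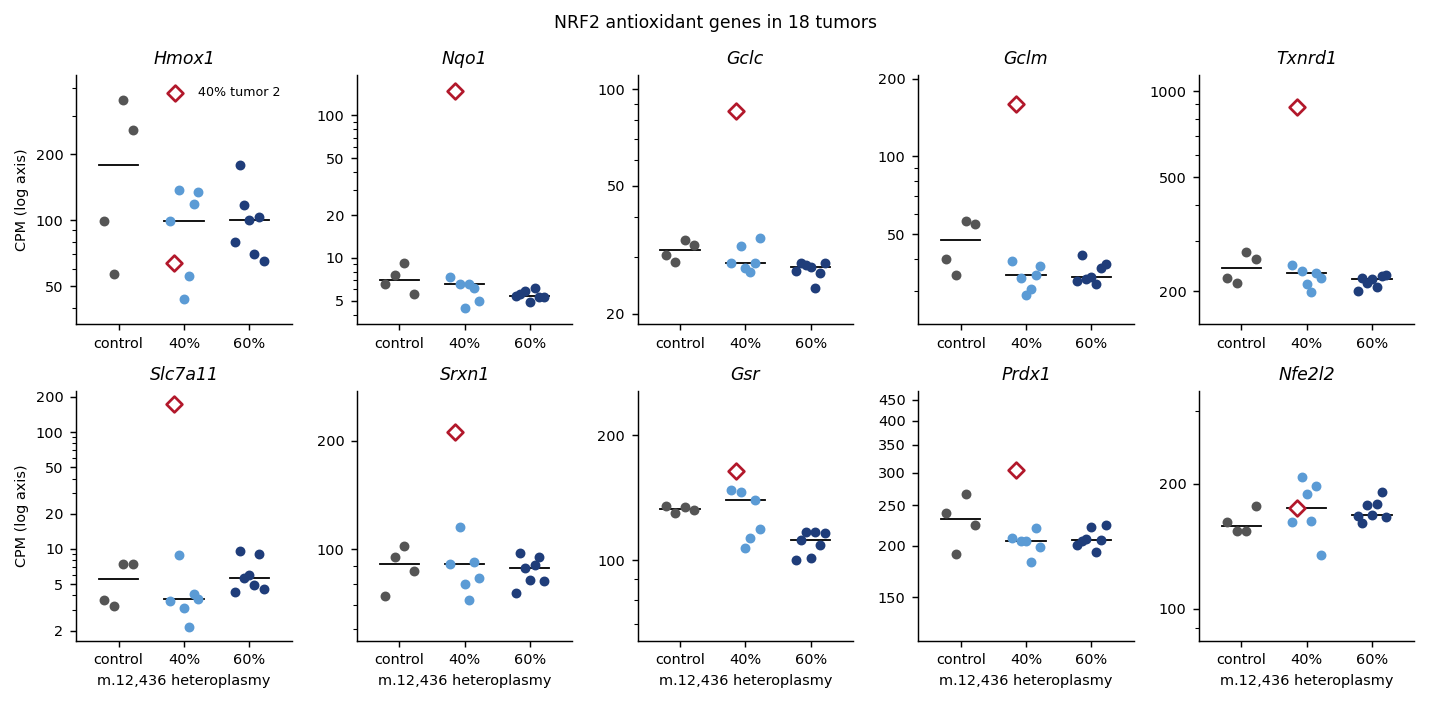
CPM (log axis) of the 10 members in 4 control tumors, 7 m.12,436 40% tumors and 7 m.12,436 60% tumors; each point is a tumor, lines are medians, and the open diamond is 40% tumor 2. The diamond is the highest point for 8 of 10 genes, at 174 CPM for Slc7a11 and 149 CPM for Nqo1, and lies among the other points for Hmox1 and Nfe2l2.

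At a stricter measure, 5 of the 10 members (*Slc7a11*, *Nqo1*, *Txnrd1*, *Gclm* and *Gclc*) were over 2-fold above the highest other tumor on the log2 CPM scale, as were 59 of all genes, or 0.364%. The same count was between 0 and 15 genes, and 0 members, in each of the other 17 tumors. *Srxn1* was the nearest member under this limit and *Gclc*, at 2.48 times, the nearest above it. Tumor 2 was picked for these values, so they are a description with no test. Its 15 macrophage markers summed to 2240 CPM, within the range of 1770 to 3400 CPM over all tumors. Its 6 fibroblast markers summed to 7740 CPM and its 8 neutrophil markers to 64.0 CPM, both the lowest of the 18 tumors. The sum of the 8 melanoma and neural crest markers was lowest there as well, at 14.8 CPM, with at least 22.7 CPM in control and 20.7 CPM in 60% tumors. That sum is nearly all *Mitf*, whose lowest value in 40% tumors was 14.5 CPM. Each other marker of this list was at most 0.533 CPM in the 40% tumors. The part of these cell types in its NRF2 target levels was not tested.

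The wider pathway was read from 86 further genes in 6 lists, of which 81 were tested in tumors. In tumor 2, 39 of these 81 were the highest of the 18, 10 were the lowest and 32 were within the range of the others. Over all genes, 18.6% were highest and 16.1% lowest in this tumor, and these shares stand beside each list count below. The NADPH list was high as a group, with 5 of its 7 genes highest and a median ratio of 2.11 to the other tumors, where the median over all genes was 0.997. *G6pdx* and *Pgd*, the NADPH-producing steps of the pentose phosphate pathway, were at 200 and 726 CPM against highest values of 87.5 and 259 CPM elsewhere.

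The detoxification list had 9 of 15 genes highest, led by *Cbr3*, a carbonyl reductase, at 36.5 CPM against at most 5.23 CPM. *Abcc1*, which exports glutathione conjugates, reached 317 CPM against at most 152 CPM. In the glutathione list, 6 of 21 genes were highest, where 18.6% of all genes were. *Gsta4*, a transferase for lipid aldehydes, stood out there at 41.5 CPM against at most 5.02 CPM. *Chac1*, which degrades glutathione and is a target of the integrated stress response, was also high, at 8.34 CPM against at most 2.1 CPM.

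Among heme and iron genes, 6 of 10 were highest in tumor 2 although *Hmox1* was not. *Blvrb*, a biliverdin reductase, was at 129 CPM against at most 41.2 CPM, and *Ftl1*, the ferritin light chain, at 2060 CPM against at most 1430 CPM. In the thioredoxin and peroxide list, 7 of 16 were highest, with catalase (*Cat*) at 121 CPM against at most 48.4 CPM. Another 4 of the 16 were lowest, where 16.1% of all genes were. They included *Txnip*, the thioredoxin inhibitor, at 121 CPM against at least 152 CPM. Among the regulators, 6 of 12 were highest, but the largest ratio was only 1.55, for *Sqstm1*, the autophagy receptor that binds KEAP1.

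**Figure D2:**
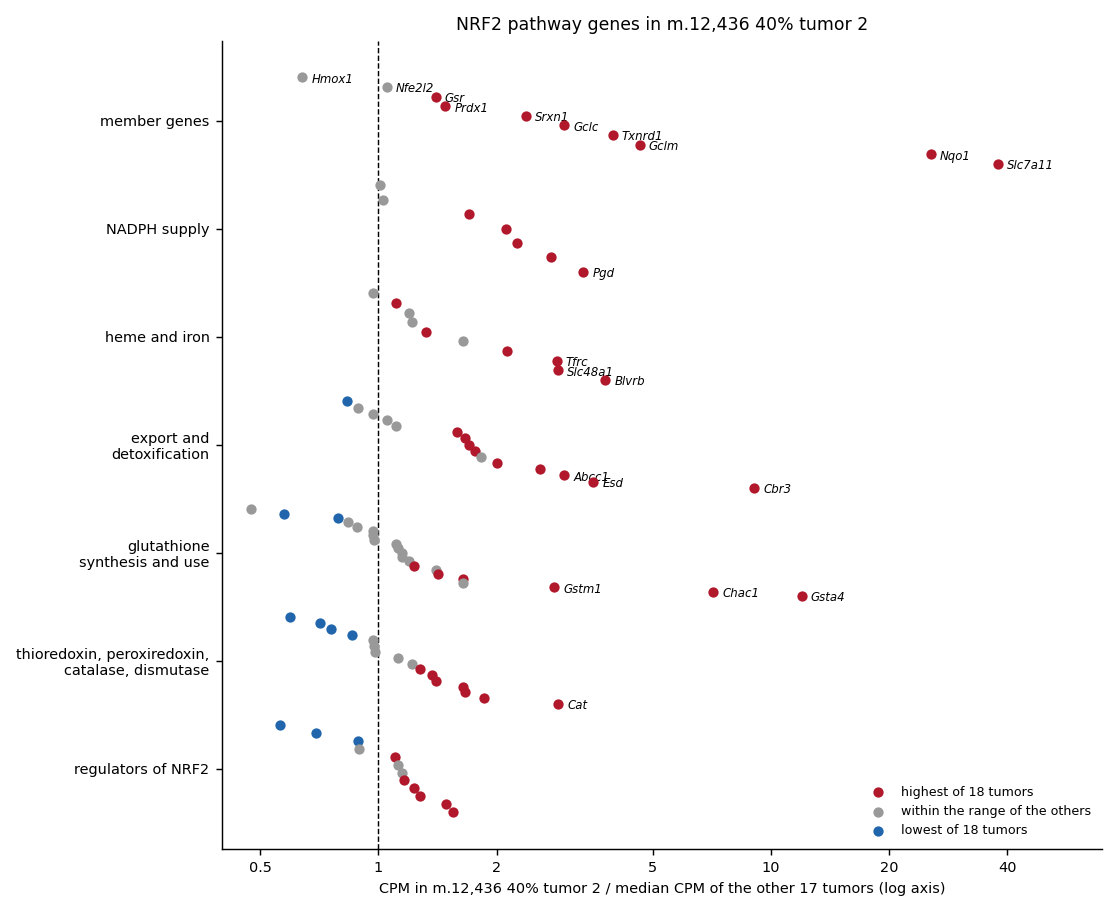
Ratio of CPM in m.12,436 40% tumor 2 to the median of the other 17 tumors (log axis) for the 10 members and the 81 tested pathway genes by list; red points are genes highest in tumor 2, blue points genes lowest in it, grey points genes within the range of the others, and the dashed line is the median of all 16213 genes, 0.997. Slc7a11 (37.9), Nqo1 (25.6), Cbr3 (9.06) and Chac1 (7.14) lie far to the right, while Hmox1 lies at 0.64.

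Because several targets were high together in this tumor, the 250 bases before their start sites were searched for the core of the antioxidant response element, TGACNNNGC, and the variant TGAGNNNGC, on both strands. RefSeq promoters of GRCm38.p6 gave 9 windows for 7 of the 10 members; *Hmox1*, *Gclc* and *Gsr* were not matched. Of the 32851 windows in the whole set, 10.2% held the core, 14.4% the variant and 23.0% either. Matches lay in 6 of the 9 member windows, with the core in *Gclm*, *Prdx1*, *Nfe2l2* and 1 of the 3 *Txnrd1* starts, the variant in *Slc7a11*, and the variant at 2 places in *Srxn1*. The windows of genes that were high in tumor 2 follow, with the one start of *Txnrd1* that holds a match and *Nqo1*, which has none, for comparison. They read 5′ to 3′ on the gene's strand and end at the base before the start, and capitals mark the matches.
Srxn1 (chr2:152105274-152105523, plus strand): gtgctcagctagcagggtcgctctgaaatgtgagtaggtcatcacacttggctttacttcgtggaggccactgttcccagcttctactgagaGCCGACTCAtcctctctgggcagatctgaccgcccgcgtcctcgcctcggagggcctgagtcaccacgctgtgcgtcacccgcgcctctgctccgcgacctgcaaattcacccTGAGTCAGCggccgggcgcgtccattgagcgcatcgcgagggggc
Txnrd1 (chr10:82858956-82859205, plus strand): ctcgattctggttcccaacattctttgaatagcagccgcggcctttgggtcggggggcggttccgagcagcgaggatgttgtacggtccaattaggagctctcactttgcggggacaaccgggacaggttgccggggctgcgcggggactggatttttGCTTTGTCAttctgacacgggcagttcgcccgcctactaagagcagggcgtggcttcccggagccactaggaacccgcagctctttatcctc
Gclm (chr3:122245307-122245556, plus strand): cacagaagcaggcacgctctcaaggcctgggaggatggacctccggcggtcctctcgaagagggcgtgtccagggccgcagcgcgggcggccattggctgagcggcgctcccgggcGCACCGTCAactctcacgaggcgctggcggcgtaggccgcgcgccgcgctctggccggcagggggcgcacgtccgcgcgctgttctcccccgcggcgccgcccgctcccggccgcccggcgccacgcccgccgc
Slc7a11 (chr3:50443614-50443863, minus strand): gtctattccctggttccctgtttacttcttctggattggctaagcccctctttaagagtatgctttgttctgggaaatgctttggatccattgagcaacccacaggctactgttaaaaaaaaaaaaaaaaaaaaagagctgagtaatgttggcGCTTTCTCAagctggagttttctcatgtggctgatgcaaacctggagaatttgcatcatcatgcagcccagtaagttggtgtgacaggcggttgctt
Prdx1 (chr4:116685349-116685598, plus strand): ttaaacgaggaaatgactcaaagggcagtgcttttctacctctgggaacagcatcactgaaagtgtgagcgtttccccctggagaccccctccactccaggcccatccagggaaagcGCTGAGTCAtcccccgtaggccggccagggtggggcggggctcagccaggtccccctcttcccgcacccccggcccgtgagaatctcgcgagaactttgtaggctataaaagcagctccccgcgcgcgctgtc
Nqo1 (chr8:107403206-107403455, minus strand): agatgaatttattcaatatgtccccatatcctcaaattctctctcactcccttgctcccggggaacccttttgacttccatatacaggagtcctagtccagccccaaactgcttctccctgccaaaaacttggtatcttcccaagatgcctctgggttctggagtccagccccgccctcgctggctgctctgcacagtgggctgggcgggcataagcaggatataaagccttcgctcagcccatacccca

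In *Srxn1* the nearer match, on the gene's own strand, begins 45 bases before the start and the other begins 158 bases before it, on the opposite strand. The matches in *Txnrd1*, *Gclm*, *Slc7a11* and *Prdx1* are all on the opposite strand, so that the motif reads in reverse complement, and begin 92, 134, 97 and 133 bases before the start. A match is only a run of letters: *Nqo1*, with none in this window, had the second largest ratio of the members in tumor 2, and *Nfe2l2*, with a core match 240 bases before its start, was not high.

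The first comparison between groups asked whether the members differ in tumors of cells with the higher mutant load. In m.12,436 60% against control tumors, none of the 10 members passed an adjusted p of 0.1 in edgeR's quasi-likelihood test over all 18 tumors, where 2.31% of genes did. The median log2 fold change of the members was -0.18, against 0.0 over all genes, and 8 of the 10 estimates were below 0. All 3 tumor comparisons share groups of tumors, so that their values below are not independent of each other.

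*Gsr* came nearest to the threshold. It measured 135, 130, 134 and 132 CPM in the control tumors and ran from 100 to 117 CPM, with a median of 112, in the 7 m.12,436 60% tumors. Each 60% tumor was below each control tumor. The log2 fold change was -0.27 ± 0.09 (SE), with an adjusted p of 0.156. *Gclc* was the only other member without overlap, with at least 29.0 CPM in each control tumor and 24.1 to 28.7 CPM in the 60% tumors, and 4.07% of all genes had groups that did not overlap. Its fold change was -0.20 ± 0.25 with an adjusted p of 0.725.

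The errors depended on a tumor outside both groups. The fit takes its estimate of spread from all 18 tumors, and m.12,436 40% tumor 2 is one of them. Without it, the fold changes of all 10 members were the same to 2 decimals, while the standard error fell from 0.25 to 0.07 for *Gclc*, from 0.89 to 0.14 for *Nqo1* and from 0.39 to 0.12 for *Gclm*. *Gsr* and *Gclm* then passed, both lower in 60% tumors, with log2 fold changes of -0.27 ± 0.08 and -0.39 ± 0.12 and adjusted p of 0.0807 and 0.0866, in an alternative added after the values were seen. That is 2 of 10 members, where 6.05% of all genes passed. *Gclc* (adjusted p of 0.126) and *Nqo1* (0.134) did not pass. With only the 2 groups in the fit, *Gsr* passed alone, with an adjusted p of 0.027. DESeq2, which puts a trimmed value in place of counts far from their group, called *Nqo1* alone, at -0.39 ± 0.14 with an adjusted p of 0.0902. *Gclm* was 40.0, 34.6, 56.3 and 54.8 CPM in the control tumors and 31.9 to 41.3 CPM, with a median of 34.2, in the 60% tumors, so that 2 of the 4 controls overlapped the 60% tumors.

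**Figure D3:**
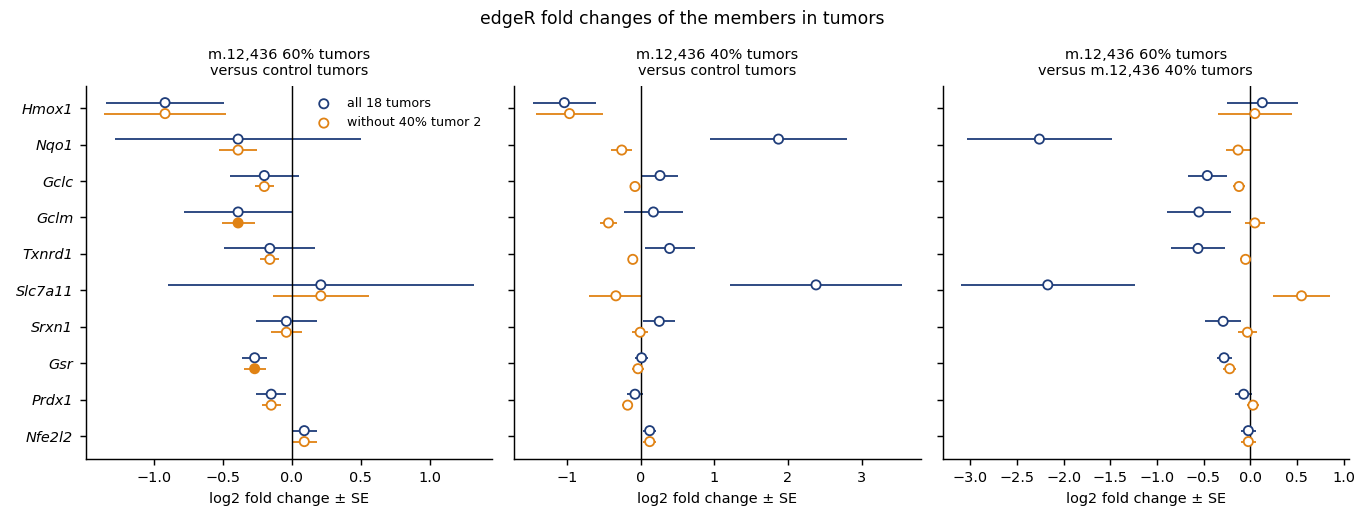
Log2 fold changes with standard errors from edgeR for the 10 members in the 3 tumor comparisons, with all 18 tumors (blue) and without m.12,436 40% tumor 2 (orange); filled points passed an adjusted p of 0.1. In the 60% comparison with control, leaving out the tumor kept the estimates and shortened the bars, and Gsr and Gclm passed; in both others, the estimates of Nqo1 and Slc7a11 moved from 1.87 to -0.26 and from 2.38 to -0.34, and from -2.26 to -0.13 and from -2.17 to 0.55.

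Of the 81 pathway genes tested in this comparison, 2 fell and 0 rose, close to the share of 2.31% over all genes. *Slc40a1*, the iron exporter ferroportin, was at 0.761 to 2.34 CPM in 60% and 1.3 to 8.39 CPM in control tumors, with a log2 fold change of -1.79 ± 0.44 and an adjusted p of 0.0602. *Nqo2*, a quinone reductase that does not use NADPH, fell by less, -0.25 ± 0.06 with an adjusted p of 0.0614, and its 60% tumors, at 27.1 to 31.8 CPM, were all below the controls, at 32.4 to 39.7 CPM. Without 40% tumor 2, 11 pathway genes fell and 1 rose, where 6.05% of all genes passed. The 11 included 4 heme and iron genes (*Slc48a1*, *Slc40a1*, *Fth1* and *Ftl1*), 3 glutathione transferases (*Gstm1*, *Gstp1* and *Mgst3*), *Ephx1*, *Sod1*, *Pgd* and *Nqo2*, and the one that rose was *Nfe2l1*, a relative of *Nfe2l2* that drives proteasome genes. *Slc40a1* fell most, by 1.79 ± 0.45 on the log2 scale, followed by *Ephx1* (-0.67 ± 0.19), *Gstm1* (-0.63 ± 0.13) and the heme transporter *Slc48a1* (-0.55 ± 0.11). The 5 erythroid markers, 4 of them globin genes, summed to 25.9 to 146 CPM (median 68.8) in control tumors and 15.8 to 81.8 CPM (median 20.9) in 60% tumors, and their part in the heme and iron genes was not tested. With tumor 2 kept, the count of 2 became 0 without control tumor 1 or 3 or without 60% tumor 1 or 4, 1 without 60% tumor 3, and 4 without control tumor 2 or 4.

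In m.12,436 40% against control tumors, no gene passed (0 of 16213 in edgeR, 0.0%, with 825 at an unadjusted p under 0.05, and 5 genes in DESeq2), and so 0 of 10 members and 0 of 81 pathway genes did. The 2 largest estimates among the members belonged to tumor 2. *Slc7a11* was 2.14 to 8.95 CPM in the 6 others and *Nqo1* 4.44 to 7.34 CPM, next to 3.27 to 7.42 CPM and 5.55 to 9.15 CPM in the controls. Their log2 fold changes, 2.38 ± 1.17 and 1.87 ± 0.93, became -0.34 ± 0.36 and -0.26 ± 0.14 without that tumor. *Gclm* turned from 0.17 ± 0.40 to -0.44 ± 0.12, with an unadjusted p of 0.00189 but an adjusted p of 0.585.

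The 60% and 40% tumors differ in mutant load and share the same edited site. Again 0 of 10 members passed, against 1.81% of all genes, and *Gsr* was nearest, with a log2 fold change of -0.28 ± 0.08 and an adjusted p of 0.108. *Gsr* had a median of 140 CPM and a highest value of 164 CPM in the 40% tumors, which overlapped the 60% tumors at their lower end. Without tumor 2 the difference was -0.22 ± 0.07 (adjusted p of 0.164), and DESeq2 gave -0.28 ± 0.08 with an adjusted p of 0.0371. *Gsr* also passed without 40% tumor 4, 5 or 7 (-0.32 to -0.30) and under both other filters on low counts. *Slc7a11* turned from -2.17 ± 0.93 with all tumors to 0.55 ± 0.31 without tumor 2. Of the 81 pathway genes, 2 passed, close to the share of 1.81% over all genes. *Nfe2l1* and *Prdx5*, a mitochondrial and peroxisomal peroxiredoxin, were higher in 60% tumors by 0.21 ± 0.05 and 0.29 ± 0.08, with adjusted p of 0.0674 and 0.0894. The ranges of both genes overlapped between the groups, and neither passed without 40% tumor 1, 2 or 6 or without 60% tumor 2, 3, 4 or 5.

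*Hmox1* varied widely within groups. It measured 99.6, 56.6, 355 and 259 CPM in the control tumors, ran from 43.6 to 137 CPM with a median of 99.1 in 40% tumors, and from 65.4 to 179 CPM with a median of 99.8 in 60% tumors. Control tumors 3 and 4 were above all 14 edited tumors, and control tumors 1 and 2 were inside their range. The log2 fold change was -0.92 ± 0.43 for 60% tumors (unadjusted p of 0.048, adjusted 0.302) and -1.04 ± 0.43 for 40% tumors (unadjusted 0.0268, adjusted 0.924), and neither passed. Without control tumor 3 they were -0.43 and -0.55, and without control tumor 2 -1.21 and -1.34. The same pair of control tumors was high for *Slc7a11* (7.41 and 7.42 CPM against 3.68 and 3.27) and *Gclm*.

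How the members varied together depended on tumor 2. With group means removed, the correlation of *Hmox1* over 17 tumors was 0.86 with *Gclm*, 0.79 with *Txnrd1*, 0.79 with *Slc7a11* and 0.72 with *Gclc*, but 0.0 with *Nfe2l2*. With tumor 2 included these 4 values were 0.15, 0.03, 0.16 and 0.05. For *Nqo1*, *Gclc*, *Gclm*, *Txnrd1*, *Slc7a11* and *Srxn1* the opposite held: their 15 pairwise correlations had a median of 0.95 over 18 tumors and 0.57 over 17. These are descriptions, and the points share libraries and scaling. The gene whose pattern over all 18 tumors was most like that of *Hmox1* was *Adam8*, a membrane metalloprotease, with r = 0.942, followed by *Nav2* (0.868), *Clec4d* (0.867), *Glb1* (0.863) and *Gas2l3* (0.857).

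Since macrophages express *Hmox1*, each member was set against a score of 15 macrophage markers, the mean of their log2 CPM, over the 18 tumors. The score was 5.91 ± 0.25 (SD, n = 4) in control, 5.83 ± 0.22 (SD, n = 7) in 40% and 5.73 ± 0.37 (SD, n = 7) in 60% tumors. *Hmox1* gave r = 0.428 (two-sided permutation p of 0.0786, adjusted over 10 members 0.216) and Spearman's rho = 0.393 (permutation p of 0.107, adjusted 0.179), which did not pass, and r was 0.229 without the 2 tumors farthest from the median score. Within groups r was 0.636 in 40% tumors (exact permutation p of 0.129) and 0.471 in 60% tumors (exact permutation p of 0.295), and without the 2 tumors farthest from the median score in each group these were 0.0258 and -0.52. The 4 control tumors are too few. With *Ptprc* in place of the score, r was -0.429 (permutation p of 0.0763), so the direction depended on the marker.

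*Gclc* also varied with the score, by rank. Its rho was 0.688 (permutation p of 0.00231, adjusted 0.0231) over 18 tumors, while r was 0.394 (permutation p of 0.0862, adjusted 0.216). Leaving out 40% tumor 2, r was 0.716 (permutation p of 0.00119, adjusted 0.0119) and rho 0.659 (permutation p of 0.00583, adjusted 0.0583), with r at 0.443 without the 2 tumors then farthest from the median score, so that part of the relation rests on them. Within the 60% tumors r was 0.965 (exact permutation p of 0.00317, adjusted 0.0317) and rho 0.857 (exact permutation p of 0.0238, adjusted 0.119), with r at 0.784 without the 2 farthest. Within the 40% tumors r was 0.509 (exact permutation p of 0.284, adjusted 0.42) and rho 0.929 (exact permutation p of 0.00675, adjusted 0.0675). The 60% tumor with the lowest score, tumor 5, also had the lowest *Gclc* of all 18, 24.1 CPM. *Gclm* had r = 0.347 (permutation p of 0.129, adjusted 0.258) and rho = 0.593 (permutation p of 0.0107, adjusted 0.0535) over 18 tumors. *Nfe2l2* had the opposite sign, with r = -0.497 (permutation p of 0.0379, adjusted 0.216) and rho = -0.548 (permutation p of 0.0203, adjusted 0.0677) over 18 tumors, so that rho was past 0.1 after adjustment and r was not. Its rho was -0.559 (permutation p of 0.0214, adjusted 0.0872) over the 17 tumors, -0.929 (exact permutation p of 0.00675, adjusted 0.0675) within the 60% tumors and -0.179 (exact permutation p of 0.713, adjusted 0.713) within the 40% tumors.

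**Figure D4:**
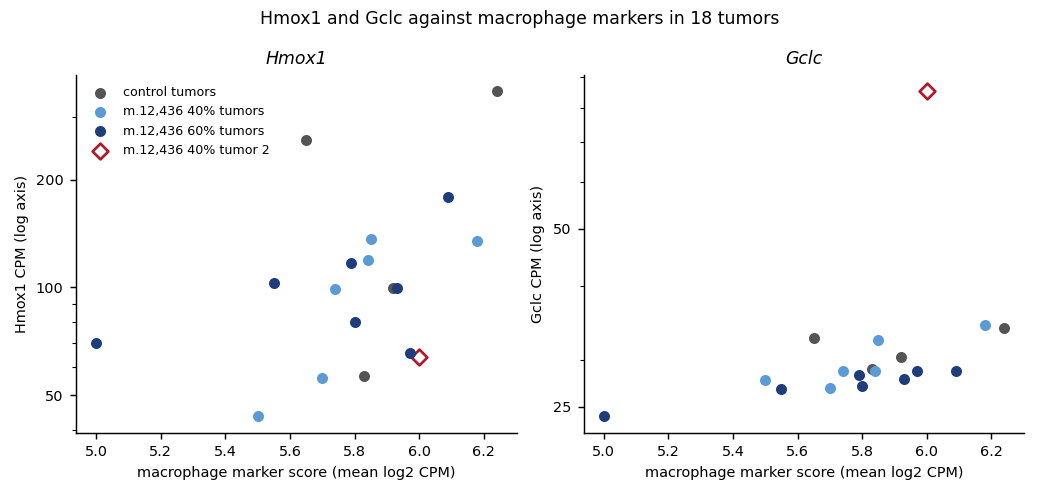
CPM (log axis) of Hmox1 and Gclc against the mean log2 CPM of 15 macrophage markers in 18 tumors, colored by group, with m.12,436 40% tumor 2 as the open diamond. Hmox1 scatters widely at a given score (r = 0.428), while Gclc rises with the score apart from the diamond at 85.4 CPM (r = 0.716 over the other 17 tumors).

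In culture the question was whether cells with the m.11,944 change differ in these genes. None of the 10 members passed in m.11,944 60% against control cells, and nor did any of 75 tested pathway genes, in a fit where 0.0387% of 12930 genes passed (532 genes and 5 pathway genes at an unadjusted p under 0.05). The median log2 fold change was -0.06 for the members and 0.0 for all genes. *Srxn1* was the member with the smallest p. It measured 143, 137, 122 and 125 CPM in control cultures 1 to 4 and 118, 112, 87.9 and 116 CPM in m.11,944 60% cultures 1 to 4. Each edited culture was below each control culture, as was the case, in either direction, for 3.48% of all genes. The log2 fold change was -0.28 ± 0.12 with an unadjusted p of 0.048 and an adjusted p of 1.0.

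The cultures carry numbers that go together across the groups, and with the number as a block *Srxn1* passed, at -0.28 ± 0.07 with an adjusted p of 0.0686. It was 1 of 10 members, where 7.11% of all genes passed with the block. *Txnrd1* (-0.23 ± 0.08, adjusted p of 0.12), *Slc7a11* (-0.51 ± 0.17, 0.138) and *Nqo1* (0.24 ± 0.09, 0.173) did not, although *Slc7a11* was lower in the edited culture of all 4 pairs. *Hmox1*, *Nqo1* and *Gsr* lie on chromosome 8, where the median log2 fold change over 711 genes was -0.085 in the blocked fit and 12.2% of genes fell. The 3 genes had estimates of 0.07, 0.24 and -0.10 there. Whether that chromosome has a part in them was not tested.

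With the block, 16 of the 75 pathway genes passed, 11 lower and 5 higher, where 7.11% of all genes passed. The regulators made up 5 of the falls, out of 11 tested: *Bach1*, the repressor of *Hmox1* (-0.34 ± 0.07), *Sqstm1* (-0.38 ± 0.09), *Gsk3b*, and the small MAF genes *Mafg* and *Maff*. The other falls were *Gsto1*, *Abcc1*, *Cbr3*, *Esd*, *Txn2* and *Prdx6*. Of the falls, at least *Abcc1* and *Cbr3* lie on chromosome 16. The median log2 fold change over 401 genes of that chromosome was -0.125 in the blocked fit, and 15.7% of them fell. Whether chromosome 16 has a part in these falls was not tested. *Gsta4* rose by 0.65 ± 0.12, the smallest adjusted p of the 16 at 0.0261, and *Mgst2*, *Idh1*, *Aox1* and *Ptgr1* rose with it.

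Culture numbers also separated the members, in both genotypes. *Slc7a11* measured 151, 148, 21.7 and 46.6 CPM in control cultures 1 to 4 and 137, 121, 8.44 and 33.7 CPM in m.11,944 60% cultures 1 to 4. Cultures 1 and 2 of both groups were therefore high and cultures 3 and 4 low, a log2 ratio of -2.33 between cultures 3 and 4 and cultures 1 and 2. *Gsr* and *Prdx1* went the opposite way, from 74.5 to 86.9 CPM in cultures 1 and 2 to between 118 and 172 CPM in cultures 3 and 4 for *Gsr*.

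The ranges of cultures 1 and 2 and of cultures 3 and 4, with genotypes pooled, did not overlap for 6 of 10 members, as for 53.7% of all genes. *Gclc*, *Txnrd1*, *Slc7a11* and *Nfe2l2* were lower in cultures 3 and 4, by 0.80, 0.43, 2.33 and 0.49 on the log2 scale, and *Gsr* and *Prdx1* higher, by 0.82 and 0.67. *Gclm* was higher in cultures 3 and 4 by 0.46, but its ranges overlapped, at 49.9 to 63.4 CPM and 58.6 to 85.7 CPM. *Gclc* and *Gclm*, subunits of a single enzyme, had a correlation of -0.70 over the 8 cultures after removing group means, where it was 0.65 over the 17 tumors. The split between cultures was seen in the data, and what sets the culture numbers apart is not given in the sources used here. *Hmox1* was lowest in culture 3 of both groups, at 27.7 CPM in control cells and lower still in m.11,944 60% cells, and over the 8 cultures *Spats2* (r = 0.973), *Cars1* (0.966), *Tmem258* (0.965), *Echdc2* (0.963) and *Gm15590* (0.962) were most like it.

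**Figure D5:**
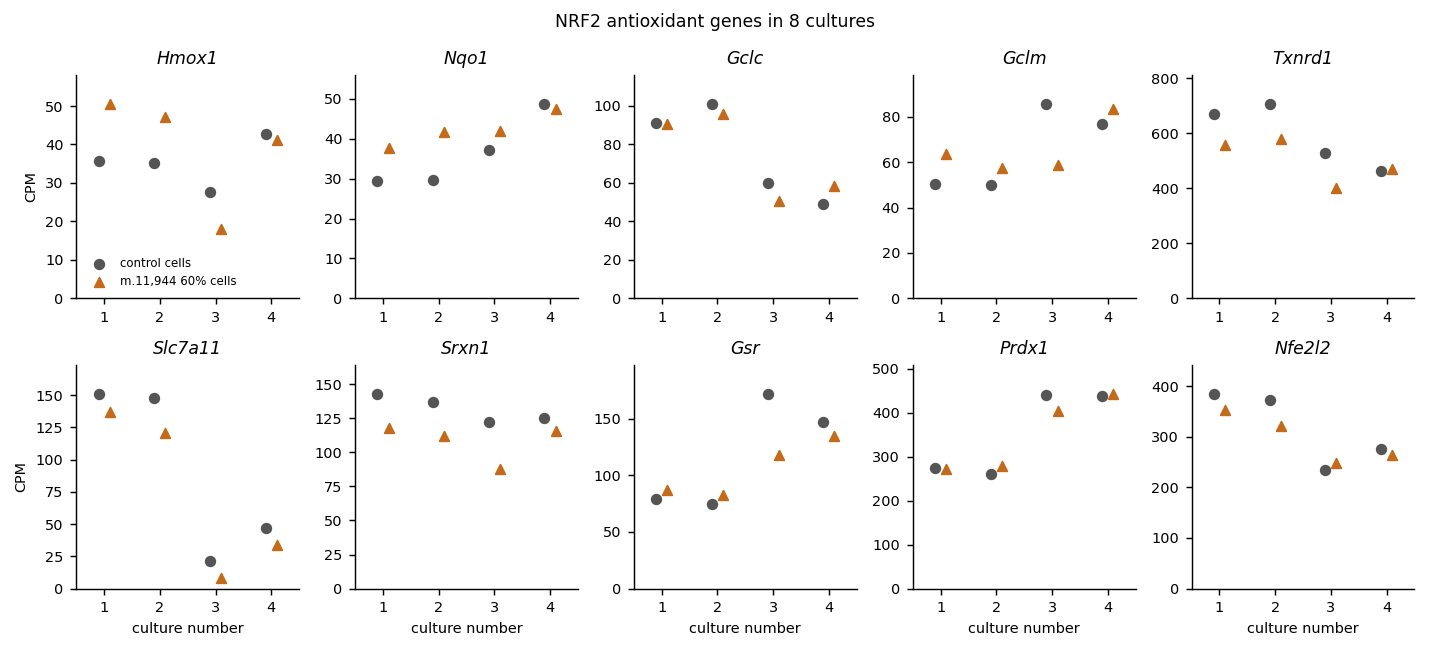
CPM of the 10 members in control cells (grey circles) and m.11,944 60% cells (orange triangles) by culture number, on axes starting at 0. For Slc7a11 cultures 1 and 2 of both groups lie between 121 and 151 CPM and cultures 3 and 4 between 8.44 and 46.6 CPM, and Gsr and Prdx1 show the reverse.

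The last comparison set the 4 control tumors against the 4 control cultures, to show where the members are expressed. In this joint scaling 9 of 10 members differed, 8 lower and 1 higher in tumors, where 65.2% of all 15047 genes tested differed and 5309 of the 9806 that did were higher. The median log2 fold change was -1.06 for the members and 0.04 for all genes. *Slc7a11* fell most, from 100 ± 73.7 to 4.91 ± 2.03 CPM (SD, n = 4 each), a log2 fold change of -4.35 ± 0.66 with an adjusted p of 0.000418. *Nqo1* had a log2 fold change of -2.60 ± 0.22, *Txnrd1* of -1.56 ± 0.16, *Gclc* of -1.52 ± 0.23 and *Nfe2l2* of -1.24 ± 0.17, all with adjusted p of at most 0.000373. *Prdx1*, *Srxn1* and *Gclm* also fell, with -0.88 ± 0.20, -0.82 ± 0.12 and -0.77 ± 0.23.

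*Hmox1* alone among the members was higher in tumors, at 173 ± 124 CPM against 38.5 ± 6.44 CPM (SD, n = 4 each), a log2 fold change of 2.17 ± 0.50 with an adjusted p of 0.00477. *Gsr* did not pass, at 120 ± 1.74 against 128 ± 52.9 CPM. Of the 81 pathway genes tested, 43 were lower and 11 higher in tumors, close to the share of 65.2% over all genes that differed. The lower ones included *G6pdx* (-1.41 ± 0.15), *Prdx6* (-1.90 ± 0.13), *Esd* (-1.92 ± 0.17) and *Gsta4* (-2.39 ± 0.25), and *Abcc3* (4.88 ± 0.23), *Sod3* (6.94 ± 0.39) and *Mgst1* (4.15 ± 0.30) were higher. The summed macrophage markers were 22.6 to 32.7 CPM in control cells and 2170 to 3400 CPM in control tumors, and summed fibroblast markers 545 to 1550 and 10400 to 12200 CPM, each scaled within cultures or tumors. The fibroblast sum in control cells was nearly all *Col3a1*, at 531 to 1530 CPM. *Dcn*, another marker of that list, was at most 0.108 CPM in control cells and at least 1100 CPM in control tumors. The share of host cells in these differences was not tested, and culture and tumor also differ in every other condition.

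Per kilobase of exon, *Prdx1* and *Txnrd1* were the most abundant members in control cells, at 92.3 ± 25.6 and 91.1 ± 18.1 CPM per kilobase (SD, n = 4 each), a pair that did not differ beyond its spread. *Nfe2l2* came next at 63.3 ± 14.8, and the other 7 lay between 6.45 and 21.9 CPM per kilobase. In control tumors *Hmox1* was first, at 98.5 ± 70.4 CPM per kilobase, with a range of 29.3 to 180 that spans *Prdx1* (50.1 ± 6.48) and *Txnrd1* (30.9 ± 3.50), and *Slc7a11* was last at 0.317 ± 0.131. When the longest transcript was taken as the length, *Txnrd1* came first in cells, at 178 ± 35.5, ahead of *Prdx1* at 136 ± 37.6.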

How the data were processed

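The authors aligned reads to GRCm39 with STAR and deposited raw counts per gene from featureCounts. Of 47 columns, 26 were matched to samples and 21 were not used here. The columns carry short codes, so the match is partly inferred. Codes of the edited groups were read from the paper's source data and from how far each group is numbered. Control cultures and control tumors were told apart by the form of their numbers. Gene names came from the GENCODE annotation of GRCm39, and 56017 of 56748 genes matched. Counts were tested with edgeR 4.0.16 in R 4.3.3 (TMM, filterByExpr, quasi-likelihood, Benjamini-Hochberg over all genes, two-sided), separately for 8 cultures, 18 tumors and 8 control samples, and a gene was called at an adjusted p under 0.1. Log2 CPM used a prior count of 2. The code was checked on simulated counts.

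The members and gene lists were chosen with earlier results of these data known. All 10 members are named, with pathway genes past the threshold (up to 12 per comparison, by p) and the 5 genes most like *Hmox1*; further genes named for m.12,436 40% tumor 2, for the blocked fit and for the fit without that tumor were chosen after their values were seen.

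Culture pairs come from the replicate numbers in the labels: deviations from the group mean correlated at 0.718 to 0.832 across genes for each of the 4 same-numbered pairs, although other numbers reached 0.81. Same-numbered tumors did not (-0.346 to 0.159 in the comparisons with controls). The labels do not say that replicates came from separate cultures, so p values measure the spread between these samples, which may be technical. The alternatives were limma 3.58.1 (voom), DESeq2 1.42.0, its size factors, no filter, at least 10 counts in every sample, an adjusted p under 0.05, only the 2 groups, a macrophage score covariate, the replicate block and leaving out each sample. Those without 40% tumor 2 in the comparison of 60% with control tumors, and in the correlations, were added after the data were seen. Tiles of transcripts were matched to the genome with minimap2 2.31.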

Additional observations from a re-analysis of the deposited data

Results flagged for a closer look

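In 50 combinations of a member and a group, the highest or lowest sample was checked for a gap to the rest of its group, and 8 had one, where chance gives about 1 in 20. In 7 of the 8 the sample was m.12,436 40% tumor 2, high for *Nqo1* (149 CPM), *Slc7a11* (174 CPM), *Txnrd1* (880 CPM), *Gclm* (160 CPM), *Srxn1* (212 CPM), *Prdx1* (305 CPM) and *Gclc* (85.4 CPM). The other was *Gclc* in m.12,436 60% tumor 5, low at 24.1 CPM, the tumor with the lowest macrophage score.

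Among the members and pathway genes, 2 differed between the 60% and 40% tumors by the test of that difference, where 1.81% of all genes did. *Nfe2l1* was higher in 60% tumors by 0.21 on the log2 scale (edgeR, adjusted p of 0.0674) and *Prdx5* by 0.29 (adjusted p of 0.0894).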

How the results depend on the processing

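Alternatives were tallied for selected pairs of a member and a comparison, not for all. Of these 295 alternative log2 fold changes, 284 kept their direction and side of the threshold and 9 newly passed it. Outside the tally, members also reversed in 40% against control tumors without 40% tumor 2. Among them were *Slc7a11* (2.38 to -0.34), *Nqo1* (1.87 to -0.26), *Gclm* (0.17 to -0.44) and *Txnrd1* (0.39 to -0.11). Within the tally the reversals were as follows. *Slc7a11* reversed in 60% against 40% tumors, from -2.17 to 0.50 in DESeq2, and was -2.37 to 0.55 when each tumor was left out in turn; the highest value was without 40% tumor 2. *Hmox1* reversed its correlation when *Ptprc* replaced the macrophage score (-0.429). In 40% against control tumors every alternative gave 0 members and 0 pathway genes. In control tumors against control cells 9 members passed in each, and 43 to 57 pathway genes where 54 did, the lowest with at least 10 counts in every sample.

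With the replicate block, 1 member and 16 pathway genes passed in cells, where 0 and 0 did, and DESeq2 gave 1 pathway gene there (*Gsta4*). In tumors the replicate numbers are only shared; the block left 1 pathway gene in both 60% comparisons and changed no member count.

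In 60% against control tumors, where 0 members and 2 pathway genes passed, DESeq2 gave 1 and 6 and the fit of only the 2 groups 1 and 14. Limma-voom, the macrophage covariate and no filter each gave 1 pathway gene, and a threshold of 0.05 gave 0. Leaving out single tumors gave 0 to 2 members and 0 to 12 pathway genes, the highest without 40% tumor 2. In 60% against 40% tumors, where 0 and 2 passed, DESeq2 gave 1 member and 4 pathway genes, no filter 1 and 0, and at least 10 counts in every sample 1 member; a threshold of 0.05 gave 0 pathway genes. Leaving out single tumors gave 0 to 1 members and 0 to 2 pathway genes.

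Over all genes, the 5 calls in cells were 84 in DESeq2 and 0 with at least 10 counts. The 374 calls of 60% against control tumors were 1056 in DESeq2, 943 with only the 2 groups and 178 with the block, and the 293 against 40% tumors were 744 in DESeq2 and 178 without a filter. Per-length levels moved for 13 of 20 values when the longest transcript set the length. Reads that *Prdx1* shares with near-identical copies, and 4 samples in each control group, limit what could be detected. The cause of these changes was not tested.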

Other observations

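Among the 59 genes that were over 2-fold above all other tumors in m.12,436 40% tumor 2, a run of neighbors stood out on chromosome 1. Between positions 105204639 and 106724458 of GRCm39, 10 genes were tested, all 10 were highest in that tumor and 9 were over 2-fold above the others. *Vps4b*, which disassembles ESCRT filaments, was at 7.63 times the median of the other 17 tumors, *Kdsr*, an enzyme of ceramide synthesis, at 394 against at most 55.9 CPM, and *Pign*, an enzyme of GPI anchor synthesis, at 443 against at most 76.9 CPM. *Bcl2*, the antiapoptotic gene, was the smallest of the 9, at 226 against at most 111 CPM, and *Tnfrsf11a*, the receptor RANK, was at 81.2 against at most 60.1 CPM. None of these genes is in the NRF2 lists. They were noticed in the data and have no test.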
